A study of Mus musculus with 16 samples.

Results

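The Hedgehog pathway genes followed here were 9 named genes among the 22350 protein-coding genes of the GENCODE annotation of NCBIM37, the assembly also called mm9. The members were the ligands Shh, Ihh and Dhh, the receptors and membrane proteins Ptch1, Smo and Hhip, and the transcription factors Gli1, Gli2 and Gli3. A peak was assigned to a member when it overlapped the gene or lay within 5 kb of it. The question was where total Jarid2 and Jarid2 dimethylated on its lysine K116 (Jarid2-K116me2) were found at these genes in embryonic stem cells (ESC), and how trimethylation of lysine 27 of histone H3 (H3K27me3) was distributed over the same genes when Jarid2 was absent, restored or mutated. Jarid2 and Jarid2-K116me2 were mapped by ChIP-seq in E14, a mouse ESC line grown in serum with LIF, with 1 sample per antibody. H3K27me3 was mapped in Jarid2 -/- cells (KO), in Jarid2 -/- cells carrying a bacterial artificial chromosome (BAC) with Jarid2 (WT), and in Jarid2 -/- cells carrying a BAC in which that lysine was changed to alanine (K116A). All 3 lines therefore lacked the endogenous Jarid2, and each rescue was represented by 1 line. Each line was studied as ESC in serum with LIF and as embryoid bodies (EB) formed by hanging drop, 8 days after LIF removal, with 2 replicates in each of the 6 groups. EB are aggregates of cells on several paths of differentiation, so that fewer cells with the mark and less mark per cell cannot be told apart.

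Hedgehog ligands are secreted proteins that pattern the embryo. In their absence the receptor Ptch1 holds back the membrane protein Smo, and binding of a ligand to Ptch1 releases Smo, which acts on the Gli factors in the nucleus. Hhip sits at the cell surface and takes up ligand. Gli1 is mostly an activator and is itself switched on by the pathway, Gli2 carries most of the activator function, and Gli3 is best known in its cleaved form, a repressor. Jarid2 is a cofactor of Polycomb Repressive Complex 2 (PRC2), the enzyme that deposits H3K27me3, a mark of repressed developmental genes.

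Of the 9 members, 8 had a Jarid2 peak and the same 8 had a Jarid2-K116me2 peak that overlapped it, whereas Gli2 had neither. Among all protein-coding genes, 18.1% had a Jarid2 peak by this rule, 16.0% a Jarid2-K116me2 peak and 15.8% overlapping peaks of both antibodies. The ligands were covered over most of their length. The receptors and membrane proteins had peaks at or just inside their 5′ ends, and Ptch1 also had peaks farther inside the gene. Among the Gli factors only Gli3 had peaks over starts of its own, which lie downstream of its 5′ end. The score of a peak in these lists is a log-transformed p-value, higher for a stronger peak. It piles up at 3100, so that peaks at this value are not ranked, and it has no replicate error because each antibody was used once. A peak scored 3100 or more was found at 3 of 3 ligands, at 1 of 3 receptors and membrane proteins and at 0 of 3 Gli factors, against 3.61% of all protein-coding genes. No test was made between the roles, which hold 3 genes each.

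**Figure D1:**
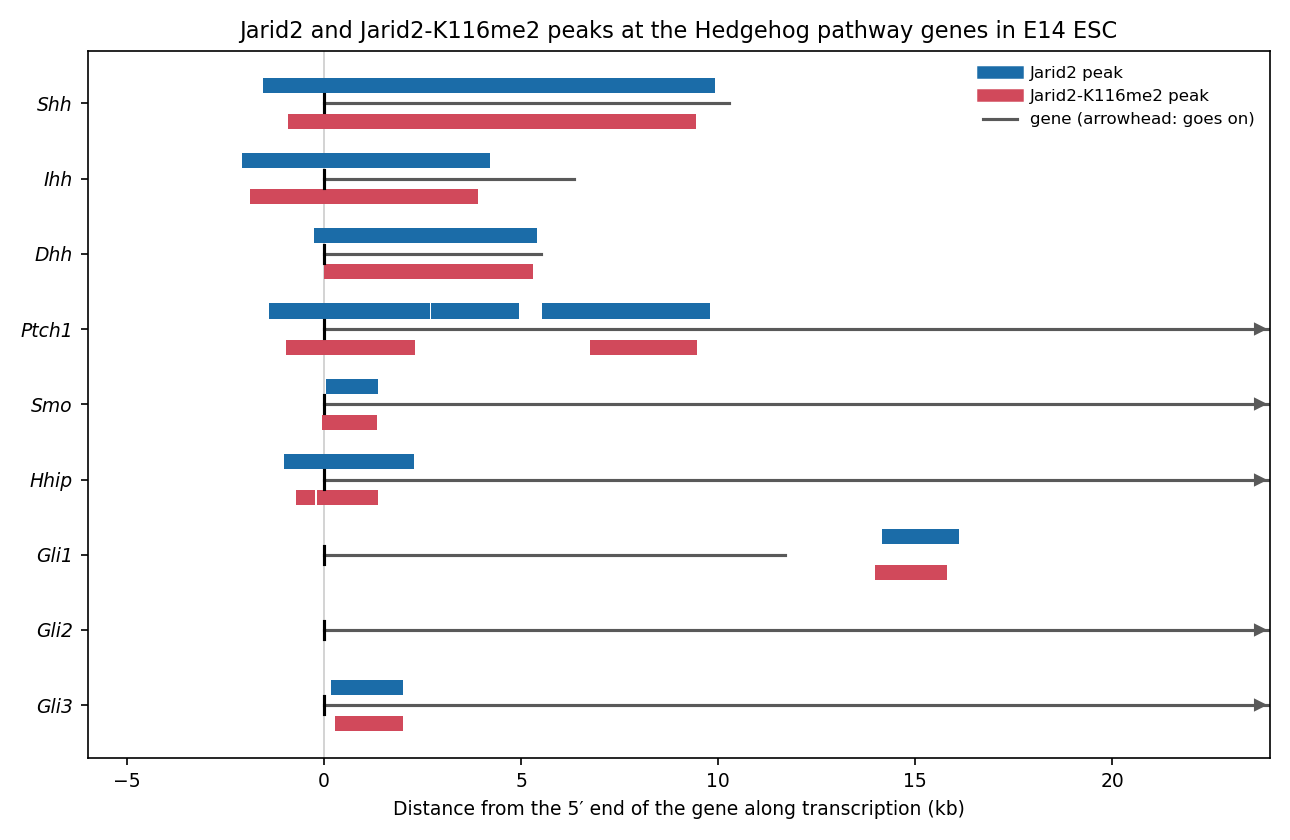
Peaks of Jarid2 (blue) and Jarid2-K116me2 (red) in E14 ESC, drawn to scale along each gene, with the distance from the 5′ end of the gene in kb on the x axis and transcription running to the right; the grey line is the gene, with an arrowhead where it runs on. The peaks span Shh and Dhh almost from end to end and lie at or just inside the 5′ end of Ptch1, Smo, Hhip and Gli3. Ptch1 has further peaks inside the gene, in an intron and at internal starts. The peaks of Gli1 lie beyond its 3′ end, and Gli2 has none.

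The sequences at the 5′ ends show how far the members differ in CG dinucleotides, which are dense at many PRC2 targets. Each is the 300 bases of NCBIM37 from 250 before the 5′ end of the gene to 50 after it, read 5′ to 3′ on the strand of the gene, with CG in capitals. The first comes from the ligand with the widest peak (Shh, chr5:28793592-28793891, minus strand). The others come from the member without any peak (Gli2, chr1:120950147-120950446, minus strand) and from a Gli factor whose peaks begin downstream of this stretch (Gli3, chr13:15554818-15555117, plus strand).
Shh: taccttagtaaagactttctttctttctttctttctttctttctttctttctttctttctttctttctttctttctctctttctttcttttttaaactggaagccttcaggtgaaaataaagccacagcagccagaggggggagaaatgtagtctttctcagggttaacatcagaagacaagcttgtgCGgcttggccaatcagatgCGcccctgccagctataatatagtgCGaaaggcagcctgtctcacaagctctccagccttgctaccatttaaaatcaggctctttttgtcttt
Gli2: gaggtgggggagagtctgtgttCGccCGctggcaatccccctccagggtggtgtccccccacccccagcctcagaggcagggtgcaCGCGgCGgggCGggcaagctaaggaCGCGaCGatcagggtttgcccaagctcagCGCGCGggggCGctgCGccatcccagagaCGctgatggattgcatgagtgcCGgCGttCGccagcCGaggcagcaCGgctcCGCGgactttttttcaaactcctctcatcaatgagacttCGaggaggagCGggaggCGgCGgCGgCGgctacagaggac
Gli3: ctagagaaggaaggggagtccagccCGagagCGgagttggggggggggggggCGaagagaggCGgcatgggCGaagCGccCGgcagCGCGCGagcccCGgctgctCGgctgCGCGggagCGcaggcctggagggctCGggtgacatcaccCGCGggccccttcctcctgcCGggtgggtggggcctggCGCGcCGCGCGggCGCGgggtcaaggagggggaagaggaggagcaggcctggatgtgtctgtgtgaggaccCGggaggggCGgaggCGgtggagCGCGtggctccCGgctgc
The last is the middle of the Jarid2 peak assigned to Gli1, which lies beyond the gene (chr10:126763367-126763666, plus strand).
Peak near Gli1: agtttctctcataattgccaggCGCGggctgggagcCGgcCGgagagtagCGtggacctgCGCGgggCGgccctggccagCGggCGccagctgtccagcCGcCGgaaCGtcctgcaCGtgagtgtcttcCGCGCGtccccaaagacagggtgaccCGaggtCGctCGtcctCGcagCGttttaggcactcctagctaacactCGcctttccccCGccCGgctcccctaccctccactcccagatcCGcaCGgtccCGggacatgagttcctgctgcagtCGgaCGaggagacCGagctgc

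The Shh sequence held 3 CG, the fewest of the members compared here, and 19.4% of all promoters of this length held fewer. Dhh held 12 CG, close to the median of 11 over all 22350 promoters. Smo held 25 CG, Ptch1 28, Gli2 28, Ihh and Hhip 30 each and Gli3 32. In these 300 bases, Gli2, without a peak, thus held as many CG as Ptch1, with several peaks, and Shh, with the widest peak, held the fewest. Over its whole Jarid2 peak, Shh held 4.26 CG per 100 bases, against a median of 4.49 over all Jarid2 peaks. The median was 21 CG in the 2728 promoters that overlapped a Jarid2 peak and 9 in the 19622 that did not. The middle of the peak near Gli1 held 31 CG in 300 bases.

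Shh lies at chr5:28783355-28793641 on the minus strand. Its Jarid2 peak (chr5:28783728-28795182) was 11455 bp wide and covered 96.4% of the gene, and the Jarid2-K116me2 peak (chr5:28784192-28794560) was 10369 bp wide and covered 91.9%. Both reached a score of 3100 and both held the start of Shh together with the starts of the lincRNAs 9530036O11Rik and Gm17493 on the opposite strand. By width, the Shh peak was number 131 of the 4992 Jarid2 peaks and number 75 of the 4502 Jarid2-K116me2 peaks.

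Ihh (chr1:74991891-74998246, minus strand), a ligand of cartilage and gut, had a Jarid2 peak of 6291 bp (chr1:74994032-75000322) and a Jarid2-K116me2 peak of 5782 bp (chr1:74994330-75000111), both scored 3100. They covered 66.3% and 61.6% of the gene and extended upstream of it. Dhh (chr15:98723462-98728971, minus strand), the ligand of Sertoli and Schwann cells, had peaks of 5667 bp (chr15:98723555-98729221) and 5314 bp (chr15:98723665-98728978), again both at 3100, over 98.3% and 96.3% of the gene. At all 3 ligands the Jarid2-K116me2 peak lay wholly inside the Jarid2 peak, with midpoints 43 to 79 bp apart.

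Ptch1 (chr13:63610261-63674474, minus strand) was the receptor with the most peaks. The first, over its 5′ end (chr13:63671785-63675860, 4076 bp), scored 3100 for Jarid2 and 3150 for Jarid2-K116me2 (chr13:63672176-63675450, 3275 bp). A second pair lay at internal starts of the gene, with scores of 1516 for Jarid2 (chr13:63664690-63668931, 4242 bp) and 1608 for Jarid2-K116me2 (chr13:63665012-63667727, 2716 bp). Between them, Jarid2 had a peak in an intron (chr13:63669526-63671766, 2241 bp) that scored 372, and this was the one Jarid2 peak of the members without a Jarid2-K116me2 peak on it. The peaks of the members thus paired 1 to 1 in most genes, but not at Ptch1 and Hhip.

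Each of the 3 Jarid2 peaks at Ptch1 held 1 copy of GACCACCCA, the consensus bound by Gli factors, which was searched on both strands. The sites are shown with 10 bases to each side, on the strand that carries the motif, with the motif in capitals: at the 5′ end (chr13:63674763-63674791, minus strand), in the intronic peak (chr13:63670583-63670611, minus strand) and near the internal starts (chr13:63667733-63667761, plus strand).
Ptch1 5′ end: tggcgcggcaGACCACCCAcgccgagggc
Ptch1 intron: cctcagccctGACCACCCAagtcgagcag
Ptch1 internal starts: aaagtagagaGACCACCCAggtaggcaac
The site at the 5′ end lay at -299 bp from the start and inside the Jarid2-K116me2 peak, whereas the other two were outside the Jarid2-K116me2 peaks. Windows of the same lengths centred on all 4992 Jarid2 peaks held the motif in 2.30% (2241 bp), 3.87% (4076 bp) and 4.03% (4242 bp) of cases. No other member had it in a Jarid2 peak, and 0.206% of all promoters held it in their 300 bases. A match is only a run of letters and does not show that a Gli factor was bound.

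Smo (chr6:29685694-29711365, plus strand) had the narrowest Jarid2 peak of the members, 1316 bp just inside its 5′ end (chr6:29685738-29687053), with a score of 502. The Jarid2-K116me2 peak of 1382 bp (chr6:29685649-29687030) scored 624. Hhip (chr8:82490014-82581905, minus strand) had a Jarid2 peak of 3304 bp over its start (chr8:82579615-82582918) with a score of 833. Here Jarid2-K116me2 was listed as 2 narrower peaks inside it, of 1553 bp (chr8:82580535-82582087, score 541) and 491 bp (chr8:82582123-82582613, score 117). Hhip was the only member in which the higher Jarid2-K116me2 score was below the Jarid2 score, by 0.62 on the log2 scale. In the other pairs below 3100, Jarid2-K116me2 scored between 0.08 (Ptch1) and 0.42 (Gli1) higher on the log2 scale. Scores of separate libraries are not set to a common depth, so these differences cannot be read as amounts of methylation.

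Gli3 (chr13:15555068-15821859, plus strand) had a Jarid2 peak of 1835 bp (chr13:15555246-15557080) with a score of 654 and a Jarid2-K116me2 peak of 1708 bp (chr13:15555358-15557065) with a score of 854, covering 2 of its starts downstream of the 5′ end. The peaks assigned to Gli1 (chr10:126766945-126778645, minus strand) did not touch the gene. The Jarid2 peak (chr10:126762538-126764495, 1958 bp, score 915) began 2450 bp beyond its 3′ end, and the Jarid2-K116me2 peak (chr10:126762839-126764655, 1817 bp, score 1221) 2290 bp beyond it. Both lay inside Arhgap9, a gene on the opposite strand that overlaps the end of Gli1. Exons of Arhgap9 made up 36.2% of the Jarid2 peak, whose midpoint was 2733 bp from the nearest start of Arhgap9 and 15129 bp from the 5′ end of Gli1. With a distance of 1 kb to the gene, or for peaks within 1 kb of a start, Gli1 had no peak and 7 of the 9 members remained. The nearest peaks to Gli2 (chr1:120730709-120950196, minus strand) were 365761 bp away for Jarid2 and 365859 bp for Jarid2-K116me2, next to Inhbb. For the other members, the next peak outside 5 kb was between 43264 bp (Ihh) and 588688 bp (Ptch1) away for Jarid2.

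Other genes of the pathway were counted in the same way. Of 16 regulators and co-receptors, 15 were found in the annotation (Disp1 was not matched) and 5 had peaks of both antibodies. The highest Jarid2 scores were at Gas1 (3100) and Lrp2 (1221), co-receptors of ligand, and at Boc (786), another co-receptor. No peak was found at 10 of them, among them Sufu and Kif7, which act on the Gli factors inside the cell. Of 18 genes known to respond to Hedgehog signals in tissues, 17 were measured (Foxl1 is listed as a pseudogene in this annotation), and 15 had peaks of both antibodies, 14 of them at 3100 or more. The widest Jarid2 peaks were at Hand2 (20839 bp), Foxa1 (18301 bp) and Nkx2-1 (15967 bp), all genes for transcription factors of development. Mycn and Ccnd1, which serve growth and the cell cycle in many tissues, had none.

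The lists of H3K27me3 peaks differed in length, from 1478 peaks in replicate 1 of ESC WT to 14125 in replicate 2 of EB KO, and covered 2.31 to 55.0 Mb. Replicate 2 had the longer list in each of the 6 groups. As checks, 6 of 6 known PRC2 targets (Hoxa9, Hoxd10, Pax6, Gata4, Cdx2 and Neurog2) had a Jarid2 peak, and 5 genes used by every cell, such as Actb, had neither Jarid2 nor H3K27me3 in any library. Among the PRC2 targets, Gata4 had H3K27me3 in 1 of 2 ESC WT and 0 of 2 EB KO libraries. The other targets had it in both replicates of every group. Of 6 ESC marker genes, Esrrb had a Jarid2 peak and H3K27me3 in both replicates of all 6 groups, ESC included. Klf4 had H3K27me3 in all 6 EB libraries and in none of the 6 ESC libraries, and Pou5f1 had it in 1 EB KO library. The lists hold no reads over Jarid2 itself, so the knockout could not be checked.

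For H3K27me3, each member was given the highest score of a peak within 5 kb of one of its transcription start sites (TSS) in each library. These scores are not set to a common depth. Shh, Ihh, Dhh and Ptch1 had a peak in all 12 libraries, Smo in 9, Gli3 in 7, Hhip and Gli1 in 4 each and Gli2 in 2. A peak in both replicates was found for 6 members in ESC KO (10.5% of all protein-coding genes), 5 in ESC WT (3.40%), 6 in ESC K116A (12.5%), 5 in EB KO (23.1%), 6 in EB WT (15.3%) and 7 in EB K116A (17.8%). Shh, Ihh, Dhh and Ptch1 each had a Jarid2 peak in E14 wider than any at the other members. The other members varied between groups, and not in the order of peak width. Hhip had H3K27me3 in 4 libraries, with a Jarid2 peak of 3304 bp against a median of 1877 bp over all Jarid2 peaks. Smo, with the narrowest Jarid2 peak (1316 bp), had it in 9. For Gli1 the TSS count does not describe its Jarid2 peak, which lay beyond the gene. At that peak of 1958 bp, H3K27me3 was listed in 10 of 12 libraries.

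**Figure D2:**
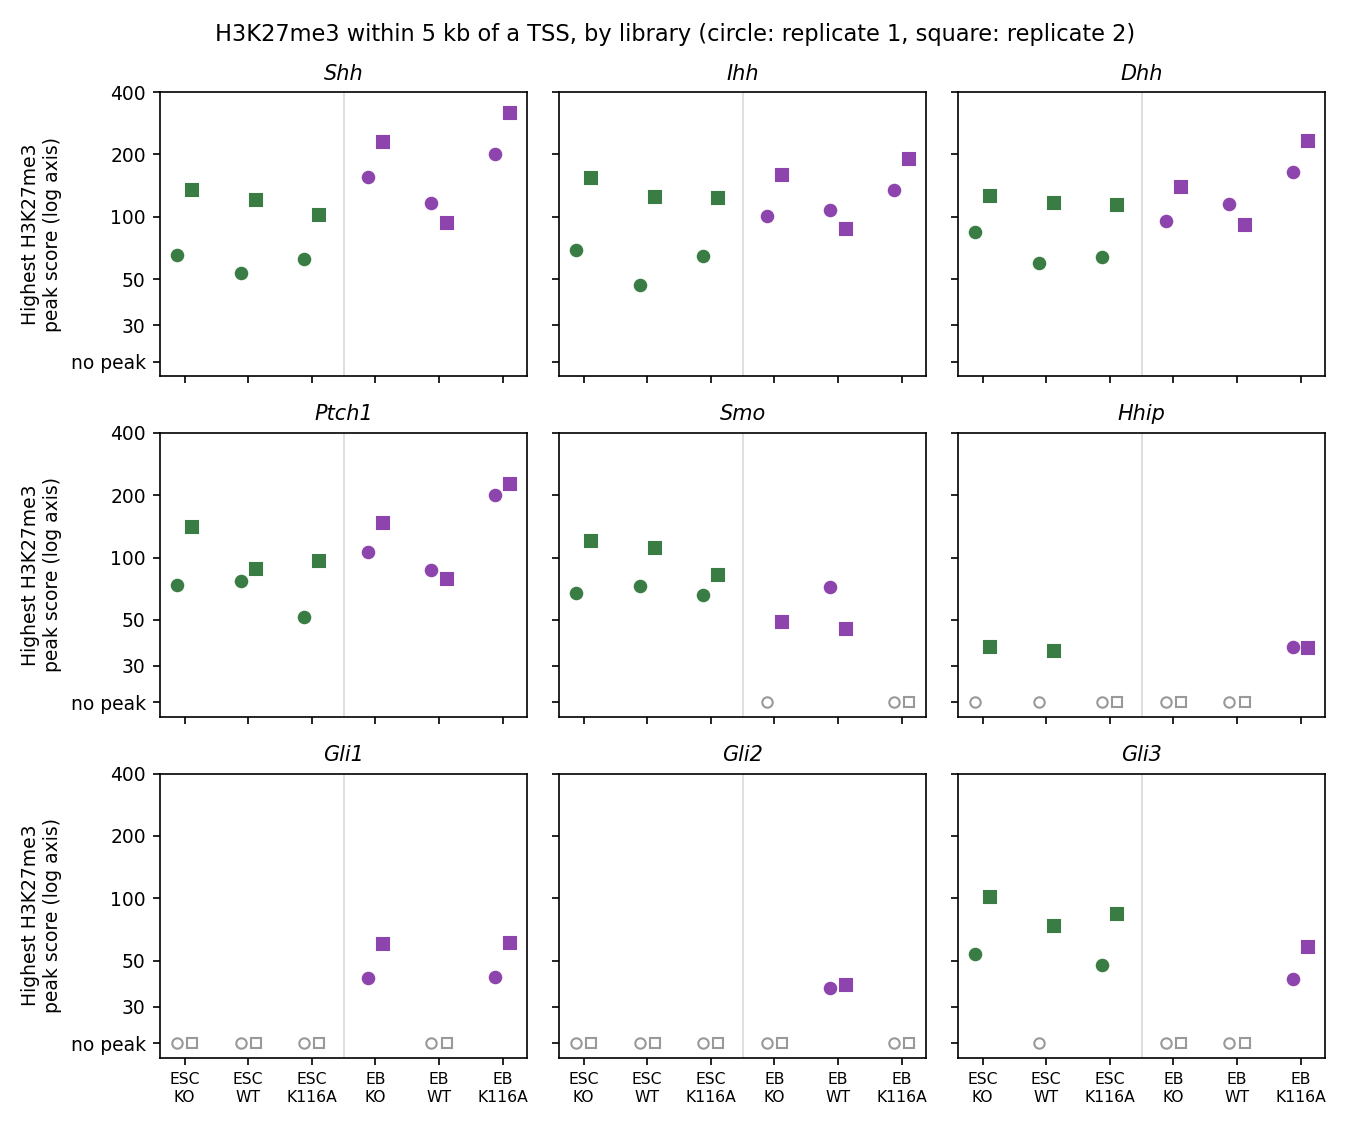
Highest H3K27me3 peak score within 5 kb of a TSS (y axis, log scale, no unit) for each member in the 6 groups (x axis); circles are replicate 1, squares replicate 2, green ESC, purple EB, and open grey symbols libraries without a peak. The ligands and Ptch1 carry a peak in all 12 libraries, with the highest values in EB K116A, while Smo and the Gli genes gain or lose the peak from group to group.

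Shh scored 65.7 and 135 in ESC KO, 53.5 and 120 in ESC WT and 62.2 and 102 in ESC K116A, each pair giving replicates 1 and 2. In EB it scored 156 and 230 in KO, 115.98 and 93.1 in WT and 200 and 316 in K116A. Both EB KO and both EB K116A libraries were above all 6 ESC libraries, whereas EB WT overlapped the ESC range. The share of all genes with this separation was not counted, so it cannot be read as particular to Shh. Replicate 2 was the higher in every group but EB WT.

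Ihh scored 68.9 and 153 in ESC KO, 47.0 and 124 in ESC WT and 64.4 and 123 in ESC K116A. In EB the Ihh values were 100.3 and 159 in KO, 108 and 87.4 in WT and 134 and 191 in K116A. The K116A EB libraries were above those of WT EB, and all other groups of Ihh overlapped between lines. Dhh scored 84.9 and 126 in ESC KO, 59.9 and 117 in ESC WT and 63.9 and 114 in ESC K116A. Its EB values were 95.4 and 139 in KO, 115 and 91.6 in WT and 165 and 231 in K116A, with K116A again above WT. At all 3 ligands, both EB K116A libraries were above both EB WT libraries, while EB KO overlapped EB WT at Ihh and Dhh. Both EB K116A libraries were also above both EB WT libraries for 40.2% of the 7073 genes with a peak in at least 2 libraries.

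Ptch1 scored 73.8 and 141 in ESC KO, 77.3 and 87.6 in ESC WT and 51.8 and 95.9 in ESC K116A. In EB the values for Ptch1 were 106 and 147 in KO, 87.3 and 78.5 in WT and 199 and 228 in K116A. Both EB K116A libraries were above all others, and the share of all genes for which this holds was not counted. In 10 of 12 libraries the H3K27me3 peak of Ptch1 ran over both its 5′ and its intronic Jarid2 peak, and in none did it reach the Jarid2 peak at the internal starts.

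With 5 kb to each side of the gene, H3K27me3 peaks covered a median of 13430 bp at Shh over the 12 libraries, 7564.5 bp at Ihh, 7174 bp at Dhh and 6655.5 bp at Ptch1. The lowest values came from replicate 1 of ESC WT, the shortest list, with 504, 1080, 348 and 620 bp. Without that library, the lowest were 10265 bp at Shh, 4358 bp at Ihh, 4203 bp at Dhh and 3180 bp at Ptch1. In EB the covered length was 13352 to 16530 bp at Shh, 7535 to 14283 bp at Ihh, 6850 to 8148 bp at Dhh and 5679 to 9673 bp at Ptch1. The K116A libraries covered 9598 and 9673 bp at Ptch1, above the other EB libraries.

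**Figure D3:**
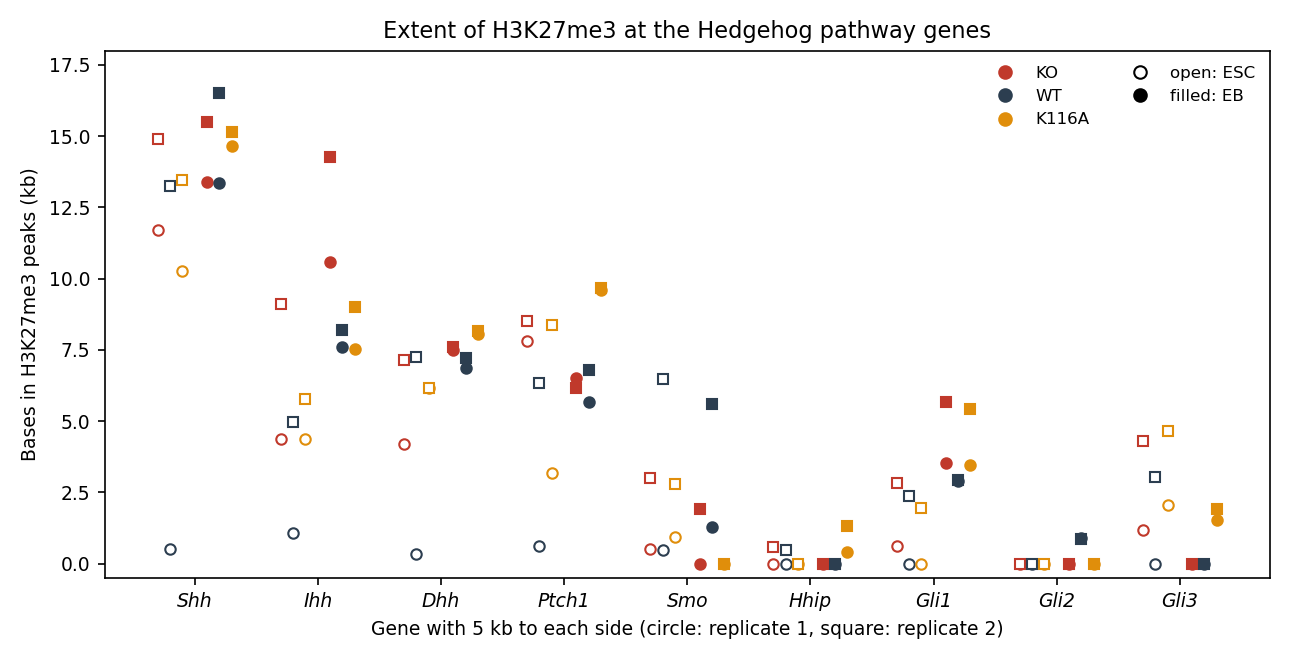
Bases covered by H3K27me3 peaks (y axis, kb) over each member with 5 kb to each side (x axis), by line (colour), stage (open for ESC, filled for EB) and replicate (circle 1, square 2). Shh carries the longest cover, up to 16530 bp, and the lone low points at the ligands and Ptch1 are replicate 1 of ESC WT.

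Smo scored 67.2 and 120 in ESC KO, 72.7 and 111 in ESC WT and 65.8 and 82.6 in ESC K116A, so that all 6 ESC libraries had the mark. In EB it remained in WT, with 71.9 and 45.4, and was not listed in either K116A library. In EB KO, replicate 1 had no peak and replicate 2 a peak of 48.8 that ended 3072 bp upstream of the start and missed the Jarid2 site. On the Jarid2 peak itself, Smo therefore had H3K27me3 in 6 of 6 ESC libraries, 2 of 2 EB WT libraries, 0 of 2 EB KO and 0 of 2 EB K116A libraries. The share of all Jarid2 peaks with this pattern was not counted. In 5 libraries Smo had separate peaks on both sides of the TSS, and 1 library of 12 had a peak over the TSS.

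Hhip had H3K27me3 in few libraries and at scores close to the lowest listed. It was listed in replicate 2 of ESC KO (37.2) and of ESC WT (35.6) and in both EB K116A libraries (37.0 and 36.5). The lowest scores in the lists ranged from 28.7 in the longest list to 43.9 in the shortest, and those of Hhip were all below the lowest score in replicate 1 of ESC WT.

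Gli3 scored 53.8 and 101 in ESC KO, 73.2 in replicate 2 of ESC WT and 47.7 and 84.0 in ESC K116A. No Gli3 peak was listed in replicate 1 of ESC WT, nor in EB KO and EB WT, whereas EB K116A had 40.9 and 58.2. As at Smo, the mark stood beside the TSS and over it in 0 of 12 libraries.

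Gli1 had no H3K27me3 within 5 kb of its TSS in any ESC library or in EB WT. In EB KO it scored 41.1 and 60.4 and in EB K116A 41.8 and 60.7, in peaks of 323 to 1333 bp at or just inside its 5′ end, where no Jarid2 peak was listed in E14. At the Jarid2 site inside Arhgap9, H3K27me3 was present in 10 of 12 libraries, missing in replicate 1 of ESC WT and of ESC K116A, with scores of 51.8 to 154. There the EB values were 104 and 153 in KO, 113 and 81.7 in WT and 116.01 and 154 in K116A, above the 4 listed ESC values. How many other Jarid2 peaks had EB above ESC in this way was not counted. Gli2 had peaks in EB WT only, with 36.8 and 38.0, and these peaks of 908 and 862 bp did not overlap each other.

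**Figure D4:**
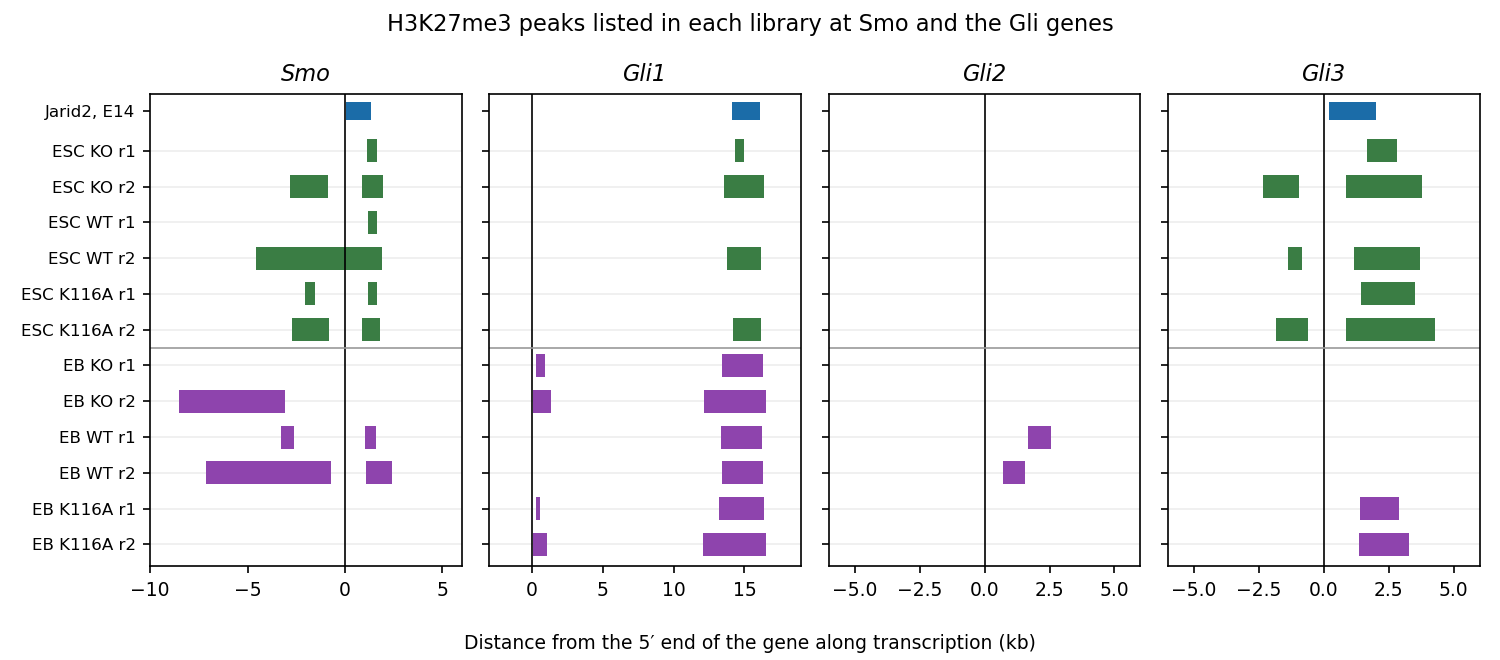
H3K27me3 peaks listed in each of the 12 libraries (rows, green ESC, purple EB, r1 and r2 the replicates) and the Jarid2 peak of E14 (blue, top row), by distance from the 5′ end of the gene in kb (x axis). At Smo the peak downstream of the start is listed in all ESC and both EB WT libraries and in no EB KO or EB K116A library, and at Gli1 a second peak at the start is listed in EB KO and EB K116A.

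To test the differences, limma was run on the log2 score over the 7073 protein-coding genes with a peak in at least 2 libraries. A gene without a peak in a library was set to the lowest score listed in any library, 28.7. The lowest score of a single list was as high as 43.9. A difference from an unlisted peak can therefore be understated or overstated. Adjusted p-values (Benjamini-Hochberg over all genes tested) under 0.05 were called. All 9 members entered the test, Gli2 through EB WT alone and Gli1 through EB KO and EB K116A alone. In these genes the other groups hold the same set value. With that value, their only possible direction was that of the groups that admitted them. Gli1 and Gli2 are therefore kept in the counts of members, and nothing is read from their differences.

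Between EB and ESC, as a mean over the 3 lines, 4 of 9 members were called, against 27.3% of all genes tested. Shh rose (24.7% of all genes were called higher) and Smo fell (2.59% lower). The other calls were Gli1 and Gli2, whose direction the filter and the common set value fixed. Shh rose by 1.01 ± 0.32 on the log2 scale (SE, adjusted p = 0.041) and Smo fell by 1.09 ± 0.25 (adjusted p = 0.016). The differences of Ptch1 (0.63 ± 0.26, adjusted p = 0.087) and Gli3 (-0.80 ± 0.29, adjusted p = 0.062) did not pass in this fit, which has no term for the replicate number. The median difference was 0.50 over the members, Gli1 and Gli2 included, and 0.25 over all genes tested. This order was not kept with centred log2 values (0.04 and 0.24) or with ranks within each library (-0.002 and 0.08). All genes called were 1749 higher and 183 lower, and 1114 higher and 1027 lower when each library's own lowest score stood for a missing peak. With log2 values centred on the genes that had a peak in all 12 libraries, Smo (-1.73), Gli3 (-1.46, adjusted p = 0.010), and Shh (0.51) were called beside Gli1 and Gli2, while Ihh (-0.01), Dhh (0.04) and Ptch1 (0.12) stood near 0. The call for Shh did not survive leaving out any 1 of 10 libraries (adjusted p from 0.057 to 0.12) and held only without replicate 2 of ESC KO or of ESC WT. That for Smo was lost without replicate 2 of ESC K116A (adjusted p = 0.053) or of EB WT (0.052).

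Between KO and WT in EB, 2 of 9 members were called, against 14.3% of all genes. These were Gli1 and Gli2. With a peak required in at least 6 libraries, neither gene entered the test and 0 members were called. Between K116A and WT in EB, 1 of 9 was called, against 2.15% of all genes (142 higher and 10 lower, or 162 and 142 with centred values). This was Gli2 again. Ptch1 was 1.36 ± 0.45 higher in K116A (adjusted p = 0.22), Shh 1.28 ± 0.55 higher (adjusted p = 0.37) and Smo 0.99 ± 0.43 lower (adjusted p = 0.38). With centred values, Smo was called lower in KO (-1.39, adjusted p = 0.032) and in K116A (-1.87, adjusted p = 0.026). With ranks within each library, limma called Smo in neither (adjusted p = 0.24 in KO and 0.11 in K116A). Nor was it called with a term for the replicate number (adjusted p = 0.26 and 0.13). Among the ligands and Ptch1, the centred difference between K116A and WT was 0.61 for Ptch1, 0.52 for Shh, 0.17 for Dhh and -0.04 for Ihh, none of them called. With a constant set for missing peaks, 4 of the 6 groups of Gli1 and 5 of the 6 of Gli2 have no spread. When each library's own lowest score stood for a missing peak, neither was called in these comparisons. The call for Gli1 in KO was lost without any 1 of 9 libraries and that for Gli2 in K116A without any 1 of 4.

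Without a test, the values of both replicates can be set side by side. In EB, both K116A libraries were above both WT libraries for 7 of 9 members, against 40.2% of all genes. These were Shh, Ihh, Dhh, Ptch1, Hhip and Gli3, and also Gli1, whose direction was fixed by its entry. Both K116A libraries were below both WT libraries for Smo, and by its entry for Gli2, against 5.80%. Both KO libraries were above WT for Shh, Ptch1 and, by its entry, Gli1, against 55.2% of all genes, and below it only for Gli2, against 4.38%. Gli1 and Gli2 entered through these groups alone, so their directions against WT were fixed in advance and nothing is read from them. The percentages of all genes also hold genes that entered in this way, which were not counted apart. KO and K116A were compared with the same WT libraries, and the EB lists held 10164 and 14125 peaks in KO, 6811 and 9866 in K116A and 6852 and 8446 in WT. The part of list length in these differences was not tested.

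In ESC, limma called 0 of 9 members between KO and WT (0% of all genes) and 0 of 9 between K116A and WT (0.0707%), and 0 of 9 had an unadjusted p under 0.05 in either comparison. The SE for KO against WT was 0.55 for Shh, 0.43 for Smo and 0.50 for Gli3. The change from ESC to EB was called different from WT for 0 of 9 members in KO (3.15% of all genes) and for 0 of 9 in K116A (0% of all genes). An unadjusted p under 0.05 was reached by 2 members in KO and 4 in K116A, against 1023 and 351 of the 7073 genes, and Gli1 and Gli2 were among them both times. The largest difference of a member was that of Ptch1 in K116A (1.59 ± 0.63, adjusted p = 0.82).

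The lists of other pathway genes were read for H3K27me3 in the same way, by counts. A peak in both replicates was found for 13 of 17 Hedgehog target genes in ESC KO, 12 in ESC WT and 13 in ESC K116A, and for 16, 15 and 16 in EB KO, WT and K116A. Of the 15 regulators and co-receptors, 3, 2 and 4 had one in ESC and 2, 2 and 3 in EB. Gas1 had the mark in 5 of 6 ESC libraries and in none of 6 EB libraries, like Smo and Gli3 a gene whose peak was listed more often in ESC. Lrp2 had it in all 12 libraries, and so did Spop, which had no peak of either antibody.

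Finally, the genes whose H3K27me3 scores over the 12 libraries were closest to those of the top member of each role were found by Euclidean distance of log2 scores. For Shh these were Sim2 (distance 0.38) and E130018O15Rik (0.41), against a median of 7.60 over all genes. For Ptch1 they were Tcfap2b (0.66) and Wnt10b (0.70), against 6.79. For Gli1 they were Grhl3 (0.18) and Nr0b1 (0.21), against 1.70. All genes here include those without a listed peak, which were set to 28.7 in every library. Each median is the distance to such a gene, so it does not measure how unusual the closeness of the named genes is. The distances describe these libraries and share their depth.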

How the data were processed

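Peaks of total Jarid2 and Jarid2-K116me2 (1 sample each) and of H3K27me3 (12 samples) were analysed as deposited. According to the methods and the submitters' processing notes, the authors mapped single reads to mm9 with Bowtie2 2.1.0, removed PCR duplicates, and called peaks against input with MACS 1.4.2 (Jarid2) or with MACS2 2.0.10 in broad mode (H3K27me3), sample by sample; HOMER 3.17 is also named. The deposited files give positions and a score, whose values are the authors' and are not normalized for depth; for H3K27me3 the definition of the score is not given in the sources used here. Reads per peak are not in these lists, so the precision of a single score is unknown. The inputs and their depth were not analysed here. The methods describe the second H3K27me3 replicates as those of higher quality.

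Genes and TSSs were taken from GENCODE on NCBIM37, and all peaks lay within its chromosomes. The H3K27me3 value of a gene was the highest score of a peak within 5 kb of a TSS. The test was planned for fold enrichments, and log2 scores were used since the files hold no folds. limma 3.58.1 (R 4.3.3, trend) was fitted to 6 groups without a block. Its p-values rest on the spread between the 2 biological replicates of a group, pooled over the 6 groups and moderated across genes. The fit was tried on simulated data in which every group varied. That trial does not cover genes with groups held at a constant, such as Gli1 and Gli2. Motifs and CG were read from NCBIM37, and some items are not reported here. Python 3.11.15 and pandas were used otherwise. The members, gene lists and alternatives were chosen with earlier results of these data known. All members are named. Of the other lists, the 3 genes with the highest Jarid2 score are named (the widest where tied), and other names were chosen after the values were seen. Leaving out a library leaves 1 in its group, which is then assumed to vary like the others.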

Additional observations from a re-analysis of the deposited data

Results flagged for a closer look

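Beside the peak at its start, Ihh had a second H3K27me3 domain in EB KO that the comparison of starts did not use. It was listed in both replicates, with scores of 66.9 (chr1:74975334-74987690) and 91.6 (chr1:74974313-74991281), beyond the 3′ end of Ihh and over Ccdc108, and no other library had it within 5 kb of Ihh. EB KO also had the longest peak lists of EB, with 10164 and 14125 peaks against 6852 and 8446 in EB WT, and their part in this difference was not tested.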

How the results depend on the processing

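The counts of members with a peak of Jarid2, of Jarid2-K116me2 or of both were 7 or 8 in each of 5, 5 and 6 alternatives. Whether replicate numbers pair the libraries was checked by correlating the deviations of replicate 2 from the group means over 7073 genes. The correlation exceeded 0.1 in 7 of 15 pairs of groups, with a range of -0.093 to 0.58. The 3 pairs of ESC groups correlated at 0.51 to 0.58, and EB K116A correlated with the ESC groups at 0.17 to 0.27. The fit in the report has no term for the replicate number. Spread shared by replicates of the same number therefore stays in its error. With the replicate block, a term for the replicate number, the members called between EB and ESC numbered 7 in place of 4, with Ptch1 (adjusted p = 0.024), Gli3 (0.013) and Dhh (0.045) added, and the block gave 0 and 0 calls in ESC, 2 and 1 between lines in EB and 0 and 0 for the change to EB, as without it. Only 4 members were tested with missing peaks left missing, 8 with a window of 1 kb and 6 with a peak in at least 6 libraries. Gli2 entered none of these fits and Gli1 only that of 1 kb, so the loss of their calls elsewhere was fixed in advance. Between EB and ESC there was 1 call with missing peaks left missing (221 of 2861 genes), 1 with a window of 1 kb (634 of 4788) and 0 with the mean over the window (615 of 7073). Between KO and WT in EB, the count of 2 became 0 with missing peaks left missing, with a window of 1 kb, with the mean over the window, for genes with a peak in at least 6 libraries and with each library's own lowest score, and 1 over the gene with 5 kb to each side. Between K116A and WT in EB, the count of 1 became 3 with centred values, 3 with centred values and the replicate block, and 2 with ranks within each library, and 0 with missing peaks left missing, a window of 1 kb, the mean over the window, a peak in at least 6 libraries or each library's own lowest score. For the change to EB, the 0 calls became 2 in KO and 2 in K116A with centred values, 2 and 2 with ranks, and 2 and 1 with centred values and the block (Gli1 and Gli2 with centred values or ranks). Ranks, own lowest scores and the centred fit with the block were added after the data were seen. The sign of Gli2 between EB and ESC turned to -0.13 with each library's own lowest score. Leaving out 1 library at a time gave 0 to 4 calls between EB and ESC, 1 to 2 for KO and 0 to 1 for K116A against WT in EB, and 0 to 2 and 0 to 1 for the change to EB in KO and K116A. In ESC no alternative called a member. Over all genes and the alternatives other than leaving out a library, the calls ranged from 221 with missing peaks left missing to 3295 with the block between EB and ESC (1932 in the report), from 17 with a peak in at least 6 libraries to 1559 with the block for KO against WT in EB (1011), from 4 with a peak in at least 6 libraries to 314 with the block for K116A against WT in EB (152), from 0 to 777 with centred values for the change to EB in KO (223) and from 0 to 206 with ranks for that in K116A (0). For K116A against WT in ESC they ranged from 0 to 6 (5), and for KO against WT in ESC from 0 to 1 (0), with 184 without replicate 1 of ESC KO. Centring moved the median difference of all genes from 0.40 to 0.07 for KO against WT in EB, from 0.18 to 0 for K116A and from 0.10 to -0.45 for the change to EB in K116A. In centred values the lowest score for a missing peak is also lower, which widens differences between listed and unlisted peaks. A cut on the q-value was planned and not run, since the lists used hold no q-values. The cause of these shifts was not tested. The lowest listed score differed from 28.7 to 43.9 between libraries, and how far read depth limits the weak peaks was not tested.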
